A study of Bos taurus with 8 samples.

Results

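The expression of 10 genes that make, transfer and recycle glucuronate was examined in the liver of fetal calves from a low-nutrition (LN) and a high-nutrition (HN) group. The genes are the UDP-glucuronosyltransferases UGT1A1, UGT1A6 and UGT2A1, the UDP-glucuronate supply enzymes UGP2 and UGDH, the ascorbate route enzymes AKR1A1, RGN and GULO, the xylulose reductase DCXR and the glucuronidase GUSB. Their probes were found by the RefSeq accession that the array design gives, which led to 24 probes among 33439 detected probes and to 10 genes among 10860 genes with a detected probe. All 24 probes were well above background on all 8 arrays. The genes were chosen with LN against HN values of these arrays already known, so their differences are described without a test.

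Glucuronidation joins glucuronic acid, carried by UDP-glucuronate, to a lipid-soluble compound, which can then leave the body in bile or urine. In liver it handles bilirubin, steroid hormones, thyroid hormones and many drugs, and it is known to mature around birth. Glucuronate that is set free can be reduced to gulonate, from which most mammals, cattle included, make ascorbate, or it can pass by way of xylulose to the pentose phosphate pathway. In mammals the UGT1A enzymes come from 1 locus, in which alternative first exons are joined to the same downstream exons.

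Each array held liver RNA of 1 Japanese Black fetus by the sample labels, with 4 LN fetuses (L5, L6, L8 and L9) and 4 HN fetuses (L1, L2, L3 and L10), taken at 8.5 months after conception, or day 260 ± 8.3. Dams ate 60% of their requirement for energy and other nutrients in the LN group and 120% in the HN group, and 5 cows were assigned to LN and 6 to HN. All fetuses shared a sire and came from male-sorted semen, and the lightest LN and heaviest HN fetuses were the ones hybridised, so diet and selection by body weight cannot be told apart. The text of the series speaks of pooled RNA, which the labels of single fetuses do not bear out.

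The arrays of LN and HN fetuses lay on separate slides and in separate scans, so that an effect of slide or scan cannot be told apart from one of diet. The range of spots well above background was 32635 to 33371 per array in LN and 33254 to 34369 in HN, of 43803 spots, and 0 were saturated. Clustering on all detected probes set the arrays of L6, L9 and L3 apart from the other 5, and values without these 3 fetuses are given for the genes below whose difference moved by over 0.1 on the log2 scale. Hepatocyte markers were bright on every array. The mean log2 signal over the 8 detected markers (ALB, TTR and others) was 17.78 to 17.93 in LN and 17.71 to 17.91 in HN. Quantile normalization gives the brightest probes nearly the same values on every array, so these ranges cannot compare hepatocyte content between the groups. Of the 8 markers, 6 were higher and 2 lower in LN by their means, and AFP differed most, by 0.34 (standard error 0.36). The red cell markers were all higher in LN on average (6 of 6 detected), with a summed signal of 13722 to 123052 in LN and 7825 to 30808 in HN. The top of that range was fetus L5. SLC4A1, EPB42 and KLF1, which also mark red cell precursors, were not detected. The neutrophil markers were higher in LN for 5 of 6, with a summed signal of 3968 to 13479 in LN and 1993 to 5479 in HN. CATHL4, MPO and ELANE, 3 of these 6, had every LN fetus above every HN fetus, as had 2.59% of all genes. By their means in LN, 6 of 7 Kupffer cell markers and 5 of 6 stellate cell markers were lower, 4 of 6 endothelial markers were higher, and 2 of 4 bile duct markers were lower. The part that any of these cells have in the results below was not tested.

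The primers of the study for the 3 UGT genes are shown because the likeness of UGT1A1 and UGT1A6 to each other recurs in the values below. Each is written 5′ to 3′, and capitals mark the 11 bases that the reverse primers of UGT1A1 and UGT1A6 have in common.
UGT1A1 forward: gtctgtctggattctcagaagtga
UGT1A1 reverse: agcccaaagagaaAACCACAATTC
UGT1A6 forward: gtatcggaaggcctccatttg
UGT1A6 reverse: AACCACAATTCcgtgttctcca
UGT2A1 forward: gcaaattccatctccaccttcct
UGT2A1 reverse: tccccatggtctcacatagtgta
The shared run ends the UGT1A1 reverse primer and begins that of UGT1A6. The forward primers of the pair share at most 4 bases in a row, and no UGT2A1 primer shares more than 5 with its counterpart of another gene. UGT1A1 and UGT1A6 also overlap as genes in the RefSeq table of the ARS-UCD2.0 assembly, whereas UGT2A1 overlaps neither. Probe sequences were not used here, and whether a probe named for UGT1A1 or UGT1A6 also captures transcripts of the other was not tested.

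In the LN fetuses the mean log2 signal of all 3 UDP-glucuronosyltransferases was lower, by 0.88 to 1.08, which is about a 2-fold difference. In contrast, the other 7 genes differed by -0.24 to 0.23. With each gene read at its brightest detected probe, 8 of 10 genes had a lower mean in LN, against 48.4% of all genes. The 3 UGT genes were more than 1.25-fold lower, a share to be read beside 8.63% of all genes, and 0 of 10 were more than 1.25-fold higher, beside 7.82%. In 0 of 10 genes did all LN fetuses lie on the same side of all HN fetuses, where 1.56% of all genes had every LN fetus below and 2.59% every LN fetus above. Since the LN against HN contrast entered the choice of genes, nothing is read from these counts. The median difference was -0.91 for the 3 UGT genes, -0.062 for the other 7 and 0.0075 for all 10860 genes.

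**Figure D1:**
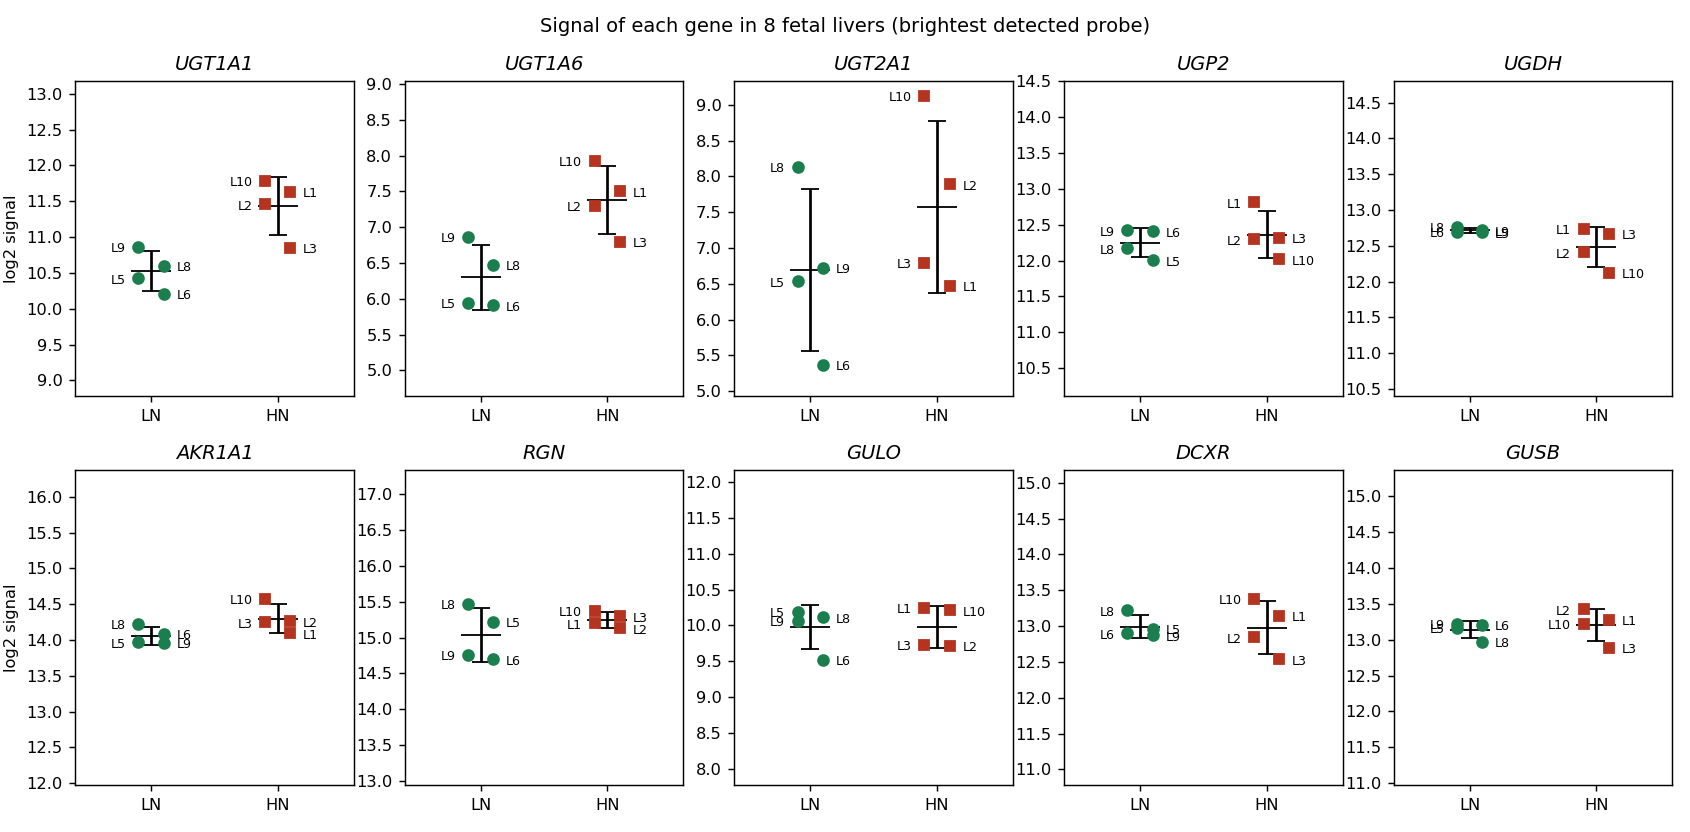
Log2 signal of the brightest detected probe of each gene (vertical axis, quantile-normalized log2 signal; every panel spans the same range) in the 4 LN and 4 HN fetuses, with each fetus named beside its point and the mean ± SD as a bar. In UGT1A1 and UGT1A6 the HN fetus L3 sits at the height of the highest LN fetus, L9, and in UGT2A1 the fetuses of each group are spread the widest.

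UGT1A1 (NM_001105636) is the enzyme that conjugates bilirubin. Its log2 signal was 10.42, 10.21, 10.60 and 10.87 in LN fetuses L5, L6, L8 and L9, and 11.63, 11.46, 10.85 and 11.79 in HN fetuses L1, L2, L3 and L10. The 4 LN fetuses lay below 3 of the HN fetuses, and L3 alone fell among them, just under L9. The means were 10.53 ± 0.28 in LN and 11.43 ± 0.41 in HN (SD, n = 4 fetuses each). LN minus HN was -0.91 on the log2 scale (standard error 0.23), or 1.88-fold. The dimmer of its 2 probes differed by -0.80 (standard error 0.40). Fewer cells that express a gene and less of its RNA per cell give the same lower signal in whole liver, and cannot be told apart here or for any gene below. Without the 3 fetuses L6, L9 and L3, the difference of UGT1A1 was -1.12.

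UGT1A6 (NM_174762) conjugates small planar phenols. The fetuses had a log2 signal of 5.95, 5.91, 6.48 and 6.87 in LN fetuses L5, L6, L8 and L9, and 7.50, 7.30, 6.79 and 7.93 in HN fetuses L1, L2, L3 and L10. The pattern was that of UGT1A1, in that L3 was the lowest HN fetus and lay just below L9, the highest LN fetus. The means were 6.30 ± 0.46 and 7.38 ± 0.47 (SD, n = 4 fetuses each), and LN minus HN was -1.08 on the log2 scale (standard error 0.29), or 2.12-fold. Its other probe differed by -0.86 (standard error 0.28). With another background correction (normexp) the difference was -0.70, and without L6, L9 and L3 it was -1.37.

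UGT2A1 (NM_001098944) belongs to a family that conjugates odorants and steroids and is best known from the nasal epithelium. On the log2 scale its signal was 6.54, 5.37, 8.14 and 6.72 in LN fetuses L5, L6, L8 and L9, and 6.47, 7.89, 6.79 and 9.12 in HN fetuses L1, L2, L3 and L10. Here the groups overlapped widely: LN fetus L8 was above 3 HN fetuses, and HN fetus L1 was below 3 LN fetuses. The means were 6.69 ± 1.13 and 7.57 ± 1.20 (SD, n = 4 fetuses each), so the log2 difference of -0.88 (standard error 0.69) was smaller than the spread within either group. The other probes differed by -1.09 and -1.13. The value rested on single fetuses, since it was -0.36 without HN fetus L10, -0.44 without LN fetus L6, -1.36 without LN fetus L8, and -0.49 without L6, L9 and L3.

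All 7 UGT probes were lower in LN, beside 49.7% of all detected probes, and 0 of 7 separated the groups completely. Of all detected probes, 1.69% had every LN fetus below every HN fetus and 2.44% every LN fetus above. Ordered by their difference from the lowest of 10860 genes, UGT1A6 stood at 46, UGT1A1 at 82 and UGT2A1 at 90, and these ranks repeat the choice of the genes. The spread within groups set UGT2A1 apart from UGT1A1 and UGT1A6. At the brightest probe the pooled SD within groups was 0.35 for UGT1A1, 0.47 for UGT1A6 and 1.17 for UGT2A1, where the median gene had 0.23. For UGT2A1, 98.8% of genes had a smaller SD within groups. For UGT1A6 the share was 85.8% and for UGT1A1 it was 74.2%.

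**Figure D2:**
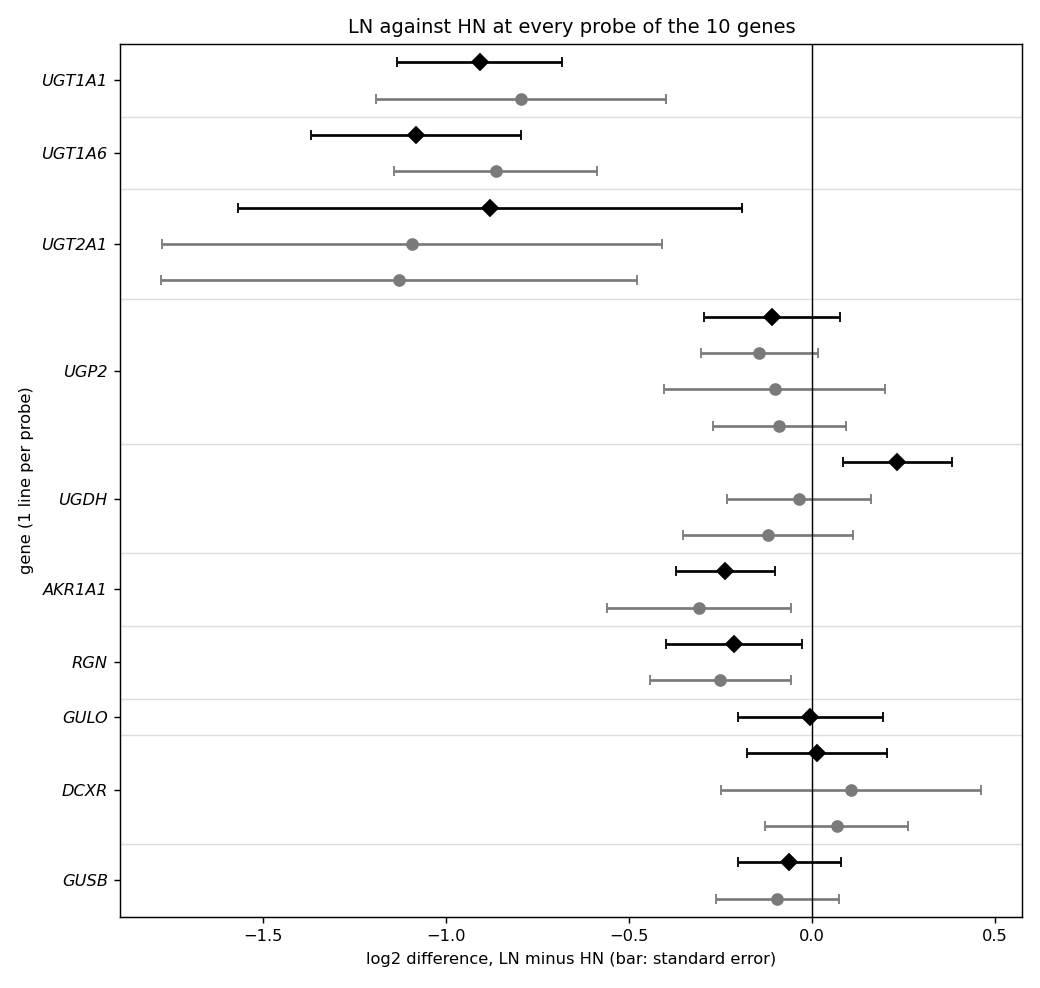
Log2 difference, LN minus HN (horizontal axis), at each of the 24 probes, 1 line per probe grouped by gene, with the standard error of the limma fit as a bar; black diamonds mark the brightest probe of a gene and grey circles its other probes. The 7 UGT probes lie between -1.13 and -0.80, and the 3 UGDH probes lie on both sides of 0.

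The 7 UGT probes were then compared fetus by fetus, after each fetus was expressed as its deviation from its own group mean, so that the LN against HN difference no longer entered. As a measure of likeness the root mean square of the differences between 2 probes over the 8 fetuses was used, in log2 units. The brighter UGT1A1 probe lay 0.15 and 0.092 from the UGT1A6 probes, and 0.32 from its own second probe. The probes of UGT1A6 lay 0.16 apart and those of UGT2A1 between 0.14 and 0.25 apart. By contrast, a UGT1A probe and a UGT2A1 probe were 0.61 to 0.88 apart. The 4 pairs of a UGT1A1 and a UGT1A6 probe, at 0.092 to 0.30, were thus within the range of pairs from the same gene or closer. The distances to UGT2A1 also carry its larger SD, since the deviations were not scaled, and do not show by themselves a different pattern over the fetuses. All 8 points come from the same arrays, and probes of 1 gene share their transcript.

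The UGT2A1 probes deviated more than the UGT1A probes in L6, L8 and L10, and in the other direction in L1. L8 was 1.23 to 1.45 above the LN mean at the UGT2A1 probes, and 0.019 to 0.58 above it at the UGT1A probes. L1 was at least 0.95 below the HN mean at the UGT2A1 probes, but 0.12 to 0.25 above it at the UGT1A probes. L9 was 0.28 to 0.57 above the LN mean for UGT1A and between -0.25 and 0.063 for UGT2A1. In L10 the UGT2A1 probes were 1.55 to 1.71 above the HN mean and the UGT1A probes 0.36 to 0.74 above it. In L6 the UGT2A1 probes deviated by -1.32 to -1.08 and the UGT1A probes by -0.79 to -0.32. All 7 probes were below the group mean in L6 and L3 and above it in L8 and L10.

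**Figure D3:**
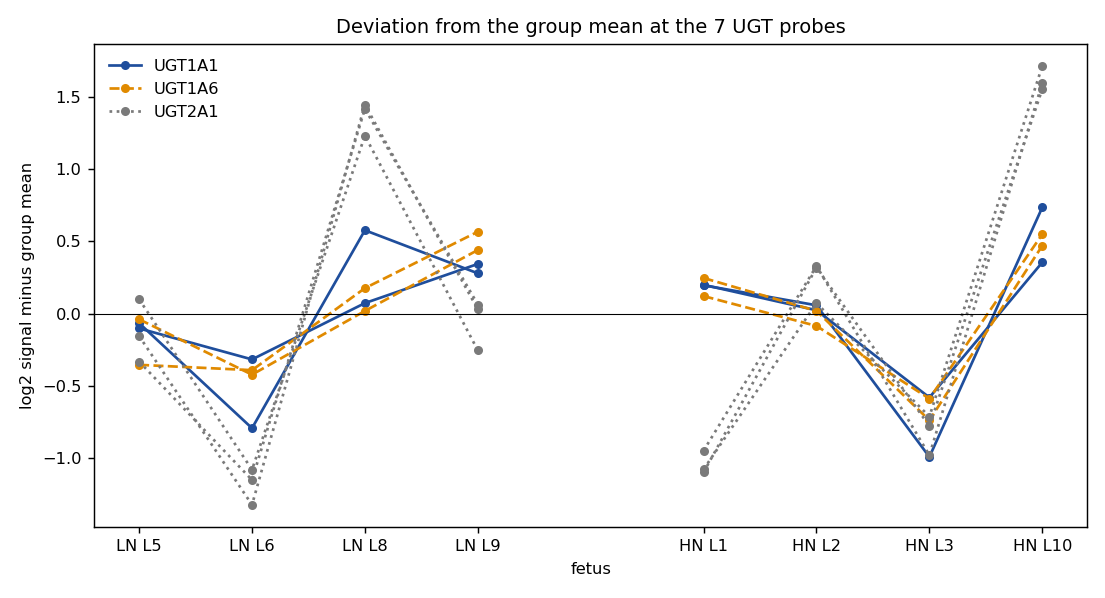
Log2 signal minus the mean of the fetus's own group (vertical axis) at the 7 UGT probes, for the 4 LN and 4 HN fetuses (horizontal axis); lines join the values of 1 probe, solid for UGT1A1, dashed for UGT1A6 and dotted for UGT2A1. The lines of the brighter UGT1A1 probe and of UGT1A6 run together. The dimmer UGT1A1 probe departs from them in L6 (-0.79), L8 (0.58) and L3 (-0.99). The UGT2A1 lines stand apart in LN fetus L8 and in HN fetuses L1 and L10, and they lie lowest in L6.

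Over the 8 fetuses with each gene centred on its own mean, UGT1A6 was the second nearest of 10859 genes to UGT1A1, at a root mean square distance of 0.18, where the median gene was at 0.60. In this measure the LN against HN difference counts, and it is given as a description. The 5 nearest genes outside the pathway were C22H3orf22 (0.17), LOC521656 (0.21), CACNB2 (0.24), GSTA4 (0.25) and PIPOX (0.25). GSTA4 is a glutathione transferase that acts on lipid peroxidation products, CACNB2 is a subunit of voltage-gated calcium channels, and PIPOX is a peroxisomal oxidase of pipecolate and sarcosine. With the group means removed, UGT1A6 ranked 8 of 10859 at a distance of 0.15, while DCXR ranked 129, GULO ranked 225 and UGT2A1 ranked 10607. Counted from UGT2A1, whose SD is large, UGT1A6 ranked 407 and UGT1A1 ranked 894 of 10859, so the rank depended on the gene it was counted from.

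The genes of UDP-glucuronate supply had smaller differences than the transferases. UGP2 (NM_174212) makes UDP-glucose from glucose 1-phosphate. It had a log2 signal of 12.00, 12.41, 12.17 and 12.43 in LN fetuses L5, L6, L8 and L9, and 12.81, 12.30, 12.32 and 12.02 in HN fetuses L1, L2, L3 and L10. L1 stood above all other fetuses, and the remaining 3 HN fetuses lay among the LN fetuses. The log2 difference was -0.11 (standard error 0.19), and it was 0.042 without L1, -0.22 without L10, and -0.29 without L6, L9 and L3. The other 3 probes differed by -0.14 to -0.090.

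UGDH (NM_174211) oxidises UDP-glucose to UDP-glucuronate. It had a log2 signal of 12.69, 12.70, 12.77 and 12.72 in LN fetuses L5, L6, L8 and L9, and 12.74, 12.41, 12.67 and 12.12 in HN fetuses L1, L2, L3 and L10. At this probe the LN fetuses were nearly alike, with an SD of 0.034, and L10 and L2 were the low HN fetuses. At the other 2 probes the LN SD was 0.33 and 0.41, and LN fetus L5 was the lowest of the 8. L10, the lowest of the 8 at the brightest probe, was the highest of the 8 at the brightest probe of UGT1A1, UGT1A6 and UGT2A1. The log2 difference was 0.23 (standard error 0.15) at this probe and -0.036 and -0.12 at the other 2, and the mean of all 3 probes differed by 0.026. Without L10 the brightest probe differed by 0.11. No direction is therefore given for UGDH.

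The route from glucuronate to ascorbate had small differences. AKR1A1 (NM_001076513) is the aldehyde reductase that turns glucuronate into gulonate. Its log2 signal was 13.97, 14.08, 14.22 and 13.96 in LN fetuses L5, L6, L8 and L9, and 14.09, 14.26, 14.25 and 14.58 in HN fetuses L1, L2, L3 and L10. L10 was the highest, and only L8 of the LN fetuses reached above the lowest HN fetus, L1. The log2 difference was -0.24 (standard error 0.14), and -0.31 at the other probe. It lay between -0.30 and -0.14 when each fetus was left out in turn, and it was -0.14 without L10.

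RGN (NM_173957), the regucalcin lactonase that closes gulonate to its lactone, had a log2 signal of 15.22, 14.70, 15.47 and 14.76 in LN fetuses L5, L6, L8 and L9, and 15.20, 15.13, 15.30 and 15.38 in HN fetuses L1, L2, L3 and L10. The LN fetuses fell into a low pair, L6 and L9, and a high pair, L5 and L8, with the HN fetuses between them or level with the high pair. The log2 difference was -0.21 (standard error 0.19). It rested on the low pair, since it was -0.099 without L6, -0.12 without L9, and 0.11 without L6, L9 and L3. Without L8, of the high pair, it was -0.36. With all fetuses the other probe differed by -0.25.

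GULO (NM_001034043) performs the last step of ascorbate synthesis and had 1 probe. Its log2 signal was 10.19, 9.52, 10.11 and 10.06 in LN fetuses L5, L6, L8 and L9, and 10.24, 9.72, 9.73 and 10.21 in HN fetuses L1, L2, L3 and L10. L6 was the lowest fetus and the groups overlapped throughout. The difference was -0.0042 on the log2 scale with a standard error of 0.20, so a difference as large as this error in either direction was not detectable with 4 fetuses against 4.

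DCXR (NM_001075891) reduces xylulose to xylitol on the way to the pentose phosphate pathway. The log2 signal of DCXR was 12.97, 12.90, 13.22 and 12.87 in LN fetuses L5, L6, L8 and L9, and 13.14, 12.84, 12.54 and 13.38 in HN fetuses L1, L2, L3 and L10. The HN fetuses enclosed the LN fetuses on both sides, with L3 the lowest and L10 the highest. The log2 difference was 0.013 (standard error 0.19), and 0.11 and 0.067 at the other probes. Its sign turned when L8, L2 or L3 was left out.

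GUSB (NM_001083436) is the lysosomal beta-glucuronidase, which removes glucuronic acid from conjugates and from glycosaminoglycans. Its log2 signal was 13.17, 13.20, 12.97 and 13.22 in LN fetuses L5, L6, L8 and L9, and 13.28, 13.42, 12.88 and 13.22 in HN fetuses L1, L2, L3 and L10. The 3 HN fetuses other than L3 were level with or above the LN fetuses, and L3 was below all of them. The log2 difference was -0.062 (standard error 0.14), and -0.094 at the other probe. Without L3 the difference was -0.17, without L2 it was 0.012, and without L6, L9 and L3 it was -0.24.

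Of the 8 fetuses, L10 stood highest in the HN group for 6 of 10 genes, where 23.2% of all genes had L10 as the highest HN fetus. L3 was the lowest HN fetus for 4 of 10 genes, and the share over all genes was 25.3%. In LN, L6 was lowest for 5 of 10 genes and L8 highest for 5 of 10, with shares over all genes of 28.8% and 25.0%. The genes that L10 was highest for were UGT1A1, UGT1A6, UGT2A1, AKR1A1, RGN and DCXR. These 10 genes share arrays, and UGT1A1 and UGT1A6, which overlap as genes, are counted separately although their profiles are alike. The counts are a description.

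**Figure D4:**
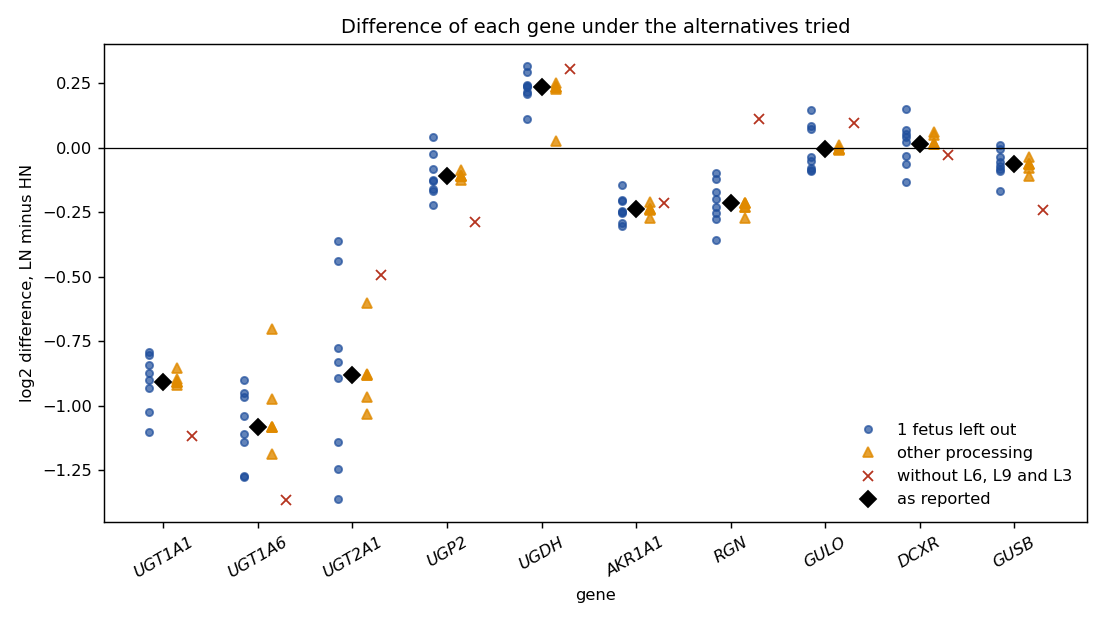
Log2 difference, LN minus HN (vertical axis), of each gene as reported (black diamond), with 1 fetus left out (blue circles), under other processing (orange triangles) and without fetuses L6, L9 and L3 (red crosses). Every value of UGT1A1, UGT1A6 and UGT2A1 lies below 0, whereas the values of UGP2, RGN, GULO, DCXR and GUSB lie on both sides of 0.

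Other genes of the pathway, from lists by function, were read in the limma fit over all 33439 detected probes. In that fit 0 probes passed an adjusted p of 0.05 (limma, lowest adjusted p = 0.634), and 2113 probes or 6.32% had an unadjusted p of at most 0.05, with 994 lower and 1119 higher in LN. Accordingly, 0 genes of any list below passed in either direction. For UGT2B10, detected mainly through the HN group, no test is given. Each list is given by its counts and its median beside the median of all genes, 0.0075.

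Among other UDP-glycosyltransferases, 3 of 20 listed genes were matched to probes, and 2 had a lower and 1 a higher mean in LN, with a median difference of -0.040. UGT2B10 (NM_001046354), a further liver transferase, had a log2 signal of 2.90, 2.55, 4.09 and 0.51 in LN fetuses L5, L6, L8 and L9, and 3.98, 4.16, 4.35 and 5.33 in HN fetuses L1, L2, L3 and L10. This probe was well above background on 2 of 4 LN arrays and on 4 of 4 HN arrays, so it was detected mainly through the HN group, the LN values lay partly at the limit of measurement, and no test is given for it. LN fetus L8 was above HN fetus L1. The means differed by -1.94 at this probe and also by -1.94 at the next, which was well above background on 1 of 4 LN and 3 of 4 HN arrays, so that both LN means lay near background, and by -0.57 at a probe well above background on 0 arrays. UGT3A2, whose family uses sugars other than glucuronate, differed by -0.040 (standard error 0.17, limma adjusted p = 0.977), and by -0.32 and -0.22 at its other probes. UGT8, the ceramide galactosyltransferase of myelin, was dim and differed by 0.39 (standard error 0.36, limma adjusted p = 0.873). Its other detected probe differed by 0.68, and a probe that did not pass detection by -0.26.

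Of 10 genes for UDP-sugar supply and use, 3 were lower and 7 higher in LN, with a median of 0.037. UXS1, which makes UDP-xylose from UDP-glucuronate, differed by 0.32 (standard error 0.24), and GALK1, the galactokinase, by -0.20 (standard error 0.19). Of 9 genes for glucuronate, xylulose and pentose steps, 6 were lower and 3 higher, with a median of -0.047. MIOX, the oxygenase that opens inositol to glucuronate, had a log2 signal of 6.30, 6.21, 7.75 and 6.18 in LN fetuses L5, L6, L8 and L9, and 7.65, 7.67, 6.50 and 8.42 in HN fetuses L1, L2, L3 and L10. LN fetus L8 was at the level of the HN fetuses and HN fetus L3 near the LN fetuses. The difference was -0.95 (standard error 0.46, limma adjusted p = 0.787). FGGY, a carbohydrate kinase, differed by -0.38 (standard error 0.18) and RBKS, the ribokinase, by -0.13 (standard error 0.13).

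The receptors and transcription factors known to act on UGT genes in other species were lower in LN for 7 of 10 and higher for 3, with a median of -0.051. The nuclear receptor NR1I3, or CAR, which responds to bilirubin and drugs, had a log2 signal of 7.15, 6.50, 7.34 and 7.84 in LN fetuses L5, L6, L8 and L9, and 8.05, 7.72, 8.11 and 8.63 in HN fetuses L1, L2, L3 and L10. Only L9 of the LN fetuses was above the lowest HN fetus, L2. The difference was -0.92 (standard error 0.29, limma adjusted p = 0.760). Unlike UGT1A1 and UGT1A6, NR1I3 had L3 among the higher HN fetuses. AHR, the receptor for dioxins and planar compounds, differed by -0.23 (standard error 0.16).

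For heme breakdown and bilirubin transport, 5 of 8 genes were lower and 3 higher in LN, with a median of -0.11. The uptake carriers of the organic anion family gave the largest differences, with SLCO1A2 at -0.41 (standard error 0.19), SLCO1B3 at -0.26 (standard error 0.36) and SLCO2B1 at -0.23 (standard error 0.20). Among sulfotransferase genes, which add sulfate to many of the compounds that UGT enzymes conjugate, 4 of 7 were lower and 3 higher, with a median of -0.047. SULT1A1 differed by -0.46 (standard error 0.22), PAPSS2, which makes the sulfate donor, by -0.46 (standard error 0.17), and SULT2A1 by -0.45 (standard error 0.30). The glycosaminoglycan polymerases, which also use UDP-glucuronate, were lower for 2 of 9 genes and higher for 7, with a median of 0.088. HAS3, a hyaluronan synthase, differed by -0.35 (standard error 0.22), and the chondroitin chain enzymes CHSY3 and CHPF2 by 0.30 (standard error 0.16) and 0.20 (standard error 0.19).

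**Figure D5:**
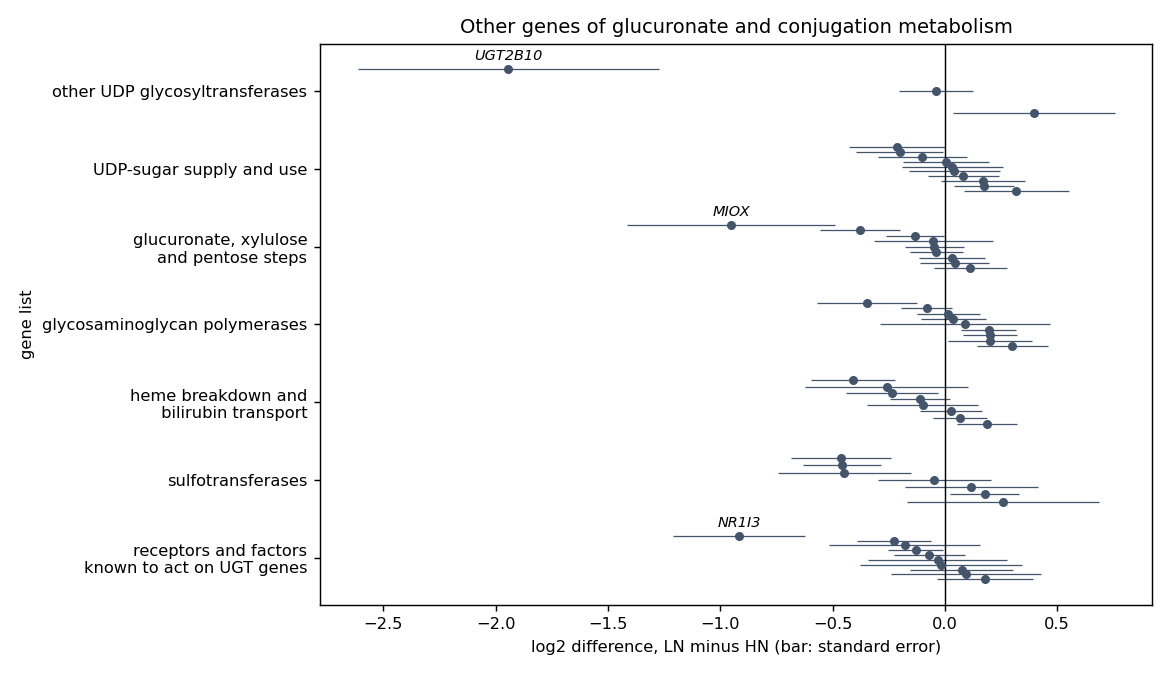
Log2 difference, LN minus HN (horizontal axis), of every detected gene of the 7 lists (1 row of points per list), with the standard error of the limma fit as a bar. MIOX at -0.95 and NR1I3 at -0.92 lie below the points around them. UGT2B10 at -1.94 was well above background on 2 of 4 LN arrays, so its point and bar include LN values near background and no test is given for it. Of the other genes, 0 passed an adjusted p of 0.05 by limma.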

How the data were processed

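Liver RNA was labelled with Cy3 and hybridised to a bovine array of Agilent. The authors deposited, per the file headers, spot intensity that Agilent Feature Extraction 11.0.1.1 had background-subtracted and detrended, with no normalization between arrays, and a table of log2 values for 31068 probes, used as an alternative, which holds quantile-normalized values of the probes above background on every array (column median 8.07). The genes and lists were chosen with earlier results of these data known. Here outlier spots were left out (16 probes), and log2 intensity was averaged over spots of a probe and quantile normalized over 43637 probes. Detection meant a signal well above background on 4 or more of the 8 arrays, and a gene was represented by its brightest detected probe. Accessions of 26740 probes matched 12603 genes of the RefSeq table of ARS-UCD2.0; no coordinates are given, because the array was designed on another build. Standard errors, and adjusted p values (Benjamini-Hochberg, over 33439 probes), came from limma 3.58.1 (2-sided) in R 4.3.3, checked on simulated data. The number of arrays limits the precision, and each is taken as a separate fetus. The alternatives were scaling to the 75th percentile, normexp with an offset of 50, the authors' log2 table, no filter or detection on all 8 arrays, the mean over probes, each fetus left out, slide position as a block, a robust eBayes with a trend and, added later, L6, L9 and L3 left out. Named genes were the 10 genes with every probe, up to 3 of each list with the largest differences, and the 5 nearest to UGT1A1; 2 list genes are counted but their values are not reported here. Markers were ALB, TTR, APOA1, APOB, SERPINA1, TF, FGB, AHSG and AFP for hepatocytes, and lists of the same kind for the other cells. The primers were copied from the supplement of the study, and its PCR values were not used here.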

Additional observations from a re-analysis of the deposited data

Results flagged for a closer look

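In 106 sets of 4 fetuses, a gene or probe in 1 group, 5 had a fetus far from the other 3 by Dixon's criterion, and chance gives such a value in about 1 of 20 sets. At a dimmer UGP2 probe, the third of its 4 by mean signal, LN fetus L5 was lowest at a log2 signal of 10.69, and the other LN fetuses were all at 10.82. At the dimmer GUSB probe, LN fetus L8 was lowest at 9.61, against 9.85 to 9.90. L8 was the highest LN fetus for MIOX at 7.75 (others 6.18 to 6.30) and for PAPSS2 at 7.10 (others 6.65 to 6.66). For PIPOX, HN fetus L3 was lowest at 10.89 (others 11.49 to 11.62). PIPOX was picked for a profile near that of UGT1A1, in which L3 was also the lowest HN fetus.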

How the results depend on the processing

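Over 15 alternatives the log2 differences of UGT1A1, UGT1A6, UGT2A1, AKR1A1 and UGDH kept their sign. The settings without a filter and with detection on all 8 arrays read the same probes and values of these genes, so they could not change a sign. The authors' table, also quantile normalized, held nearly the same values. With each fetus left out in turn, UGT1A1 ranged from -1.10 to -0.79, UGT1A6 from -1.28 to -0.90, UGT2A1 from -1.36 to -0.36, and the median of the 3 UGT genes from -1.14 to -0.79. In the same way UGP2 ranged from -0.22 to 0.042, GULO from -0.090 to 0.15, DCXR from -0.13 to 0.15 and GUSB from -0.17 to 0.012, so their sign turned. GULO was 0.0095 with scaling to the 75th percentile, under which the median of all genes was -0.023 and 54.4% of genes were lower, against 48.4%. UGDH was 0.026 as the mean of its probes and 0.11 to 0.32 with a fetus left out. Without L6, L9 and L3, an alternative added after the data were seen, RGN was 0.11, GULO 0.095 and DCXR -0.029. The number of the 10 genes lower in LN ranged from 6 to 9 with a fetus left out. The number without overlap between groups, 0 as reported, was 1 with normexp (UGT1A1), 0 to 3 with a fetus left out, and 3 without L6, L9 and L3 (UGT1A1, UGT1A6 and GUSB). Without L3 it was 3 (the same 3 genes), without L9 it was 2 (UGT1A1 and UGT1A6), without L1 it was 2 (UGDH and AKR1A1) and without L8 it was 1 (AKR1A1). Over all genes the share without overlap in either direction was 4.14% with 8 fetuses, 4.26% with normexp, 5.55% to 9.40% with a fetus left out (9.40% without L3), and 31.1% without L6, L9 and L3, so nothing is read from these counts. Probes past an adjusted p of 0.05 by limma numbered 0 to 1 with a fetus left out, the 1 without L6, and 0 under the other alternatives. Causes were not tested. No paired analysis was possible because LN and HN fetuses share no replicate number in the labels; slide position, which joins arrays and not animals, gave 0 probes as a block (lowest adjusted p = 0.940, limma). Signals near background, as in UGT2B10, limit what a difference can show.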

Other observations

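With the group means removed, the 5 genes nearest to UGT1A1 over the 8 fetuses were CREB3L3 (distance 0.11), NMB (0.12), ANG (0.13), NUDT16 (0.14) and EPHX1 (0.15). CREB3L3 is a liver transcription factor of the fasting response, and EPHX1 is the microsomal epoxide hydrolase of drug metabolism. For each, L3 was the lowest HN fetus, as it was for UGT1A1. They were picked for nearness to UGT1A1, so a low L3 comes with that choice. Their LN against HN differences ran both ways, from -0.48 for EPHX1 and -0.37 for CREB3L3 to 0.068 for ANG and 0.41 for NMB. This second ranking was added after the data were seen.

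For UGT1A6, with each gene centred on its own mean, UGT1A1 was nearest of 10859 genes, and the 4 nearest of the rest, chosen after their values were seen, were PLCD4 (0.19), LOC521656 (0.19), C22H3orf22 (0.26) and NR1I3 (0.30), against a median of 0.72. LOC521656 and C22H3orf22 were thus near both UGT1A1 and UGT1A6. For UGT2A1 the nearest gene was NXPH3 at 0.52 and PON1, the paraoxonase of liver and plasma, followed at 0.52, against a median of 1.13. These distances share the 8 arrays and are a description.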
